A study of Mus musculus with 8 samples.

Results

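The genes described here are the mouse F-box genes of the Fbxw, Fbxl and Fbxo families in P1 oocytes. They were chosen by name, as every gene whose symbol is Fbxw, Fbxl or Fbxo followed by a number and at most 1 letter. This took 77 of the 21959 genes in the deposited table, out of 78 such names in the annotation. By position, 14 of the 77 form a tandem block of Fbxw genes on chromosome 9, and the other 63 are Fbxw17, 8 genes from Fbxw2 to Fbxw11, 18 Fbxl genes and 36 Fbxo genes. The block was singled out, selected on its wild-type levels and its fall in the knockout in these same libraries, so its values and its calls are given as a description and support nothing. The other F-box genes entered by name whatever their values were.

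The study compared putative primordial oocytes picked from ovaries of wild-type and Rbpms2 knock out mice at postnatal day 1, with 4 libraries per genotype. Rbpms2 encodes an RNA-binding protein, and the labels give neither the design of the deleted allele nor the strain of either genotype. Each library came from a tube of 5 to 10 oocytes whose mRNA was amplified for 18 cycles, and nothing in the labels ties a tube to its own animal. The p-values therefore describe variation from tube to tube, which may be technical. In such tubes, fewer cells carrying a transcript and less RNA per cell cannot be told apart.

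F-box proteins are the substrate-binding subunits of SCF ubiquitin ligases. The F-box motif binds the adaptor Skp1, which sits on the cullin Cul1 with the RING protein Rbx1, and the rest of the F-box protein binds the target that receives ubiquitin. Fbxw proteins bind targets through WD40 repeats, Fbxl proteins through leucine-rich repeats, and Fbxo proteins through other domains. In oocytes, SCF ligases and F-box proteins are known for control of the meiotic cell cycle, and mice carry a set of Fbxw genes on chromosome 9, among them Fbxw15, that is known for expression in oocytes.

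The chromosome 9 block spans 109139447 to 109790670 in GRCm38 (651.2 kb). All 14 genes are on the minus strand, between Plxnb1 and Spink8, in the order Fbxw21, Fbxw13, Fbxw20, Fbxw14, Fbxw28, Fbxw22, Fbxw16, Fbxw19, Fbxw15, Fbxw24, Fbxw25, Fbxw18, Fbxw26 and Fbxw27. Fbxw17 lies apart on chromosome 13 (50417864 to 50433780). The coding sequences of the 14 genes, 1395 to 1410 bases long, were 79.1% to 99.1% identical to each other (median 83.9%), and 48.1% to 50.2% identical to that of Fbxw17. Fbxw14 and Fbxw28 were the pair at 99.1%.

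The genes of the block also resembled each other upstream of their starts. RefSeq windows of 250 bases before to 50 after the start (GRCm38.p6) were given for 11 of the 14 genes and for Fbxw17. These 11 windows were 83.1% to 97.7% identical (median 91.3%), and 184 aligned columns held the same base in every one. The 200 bases directly before the start are shown 5′ to 3′ on the gene's strand for 3 of the more abundant genes (Fbxw24, Fbxw15 and Fbxw18), for Fbxw28 as a less abundant one, for Fbxw20, which differs from the rest in its copies of CAGCTG, and for Fbxw17 as the copy outside the block. Capitals mark each match to CANNTG, the E-box letters that basic helix-loop-helix factors bind.
Fbxw24, chr9:109626060-109626259, minus strand: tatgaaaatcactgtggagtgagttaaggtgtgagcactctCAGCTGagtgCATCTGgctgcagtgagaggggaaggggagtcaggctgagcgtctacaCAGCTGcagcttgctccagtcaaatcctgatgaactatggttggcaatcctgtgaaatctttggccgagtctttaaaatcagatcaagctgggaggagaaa
Fbxw15, chr9:109568263-109568462, minus strand: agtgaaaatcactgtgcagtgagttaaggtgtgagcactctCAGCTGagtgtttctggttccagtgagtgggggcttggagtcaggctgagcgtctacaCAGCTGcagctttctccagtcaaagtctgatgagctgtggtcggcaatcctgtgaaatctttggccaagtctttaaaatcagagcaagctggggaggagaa
Fbxw18, chr9:109702701-109702900, minus strand: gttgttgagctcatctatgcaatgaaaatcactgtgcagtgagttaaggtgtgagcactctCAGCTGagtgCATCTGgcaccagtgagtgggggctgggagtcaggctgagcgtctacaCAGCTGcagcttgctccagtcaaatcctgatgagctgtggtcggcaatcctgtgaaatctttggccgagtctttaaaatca
Fbxw28, chr9:109339660-109339859, minus strand: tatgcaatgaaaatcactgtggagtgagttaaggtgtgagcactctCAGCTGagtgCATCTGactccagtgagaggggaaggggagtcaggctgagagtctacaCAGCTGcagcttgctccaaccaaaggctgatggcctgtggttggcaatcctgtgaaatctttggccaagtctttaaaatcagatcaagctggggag
Fbxw20, chr9:109234755-109234954, minus strand: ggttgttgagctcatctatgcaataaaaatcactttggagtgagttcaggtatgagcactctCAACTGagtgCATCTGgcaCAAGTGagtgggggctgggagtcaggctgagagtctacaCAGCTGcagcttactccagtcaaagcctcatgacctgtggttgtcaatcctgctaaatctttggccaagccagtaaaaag
Fbxw17, chr13:50417664-50417863, plus strand: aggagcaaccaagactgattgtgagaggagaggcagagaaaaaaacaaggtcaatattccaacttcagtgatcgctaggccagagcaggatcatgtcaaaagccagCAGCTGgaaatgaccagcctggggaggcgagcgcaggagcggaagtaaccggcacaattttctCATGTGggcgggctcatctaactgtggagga

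CANNTG was present in 11 of 11 windows of the block, in 34 of 47 windows of the other F-box genes (72.3%) and in 72.1% of the 27025 windows of all genes. Its CAGCTG form, counted after the promoters had been read, was in 11 of 11 windows of the block, in 10 of 47 other F-box windows (21.3%) and in 16.1% of all windows. Every CAGCTG match is also a CANNTG match, and both were searched on both strands. CAGCTG occurred as 2 copies 56 to 58 bases apart in 10 of the 11 windows, at -159 and -101 in Fbxw24, and as 1 copy at -80 in Fbxw20 and at -94 in Fbxw17. The windows of the block came from near-identical copies and are not independent cases. TAATTG and TAATTA, letters that homeobox factors bind, and TATAAA, the TATA box, were in 0 of the 11 windows of the block. They were also rare in the 47 other F-box windows, with 2 (4.3%), 2 (4.3%) and 0 windows holding them. Over all windows the shares were 8.2%, 5.3% and 14.2%. Median GC content of the windows was 49.7% in the block, 61.0% for the other F-box genes and 52.7% over all genes.

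The block was expressed in every wild-type library and was at or near 0 in the knockout. Summed over its 14 genes, the level was 283.6, 160.6, 166.5 and 291.8 FPKM in wild-type libraries 1 to 4, and 0.1, 0.2, 0.9 and 3.4 FPKM in knockout libraries 1 to 4. FPKM is a read level scaled to exon length and library depth, so genes can be set side by side, except where similar copies share reads. The mean fell from 225.6 ± 71.8 (SD, n = 4) to 1.16 ± 1.55 FPKM (SD, n = 4), and no knockout library came near the lowest wild-type library. Wild-type libraries 1 and 4 held more of the block than libraries 2 and 3. Recovered from the FPKM steps, the reads over the block in knockout libraries 1 to 4 were 1, 8, 17 and 64, so most of the residual signal was in knockout library 4.

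**Figure D1:**
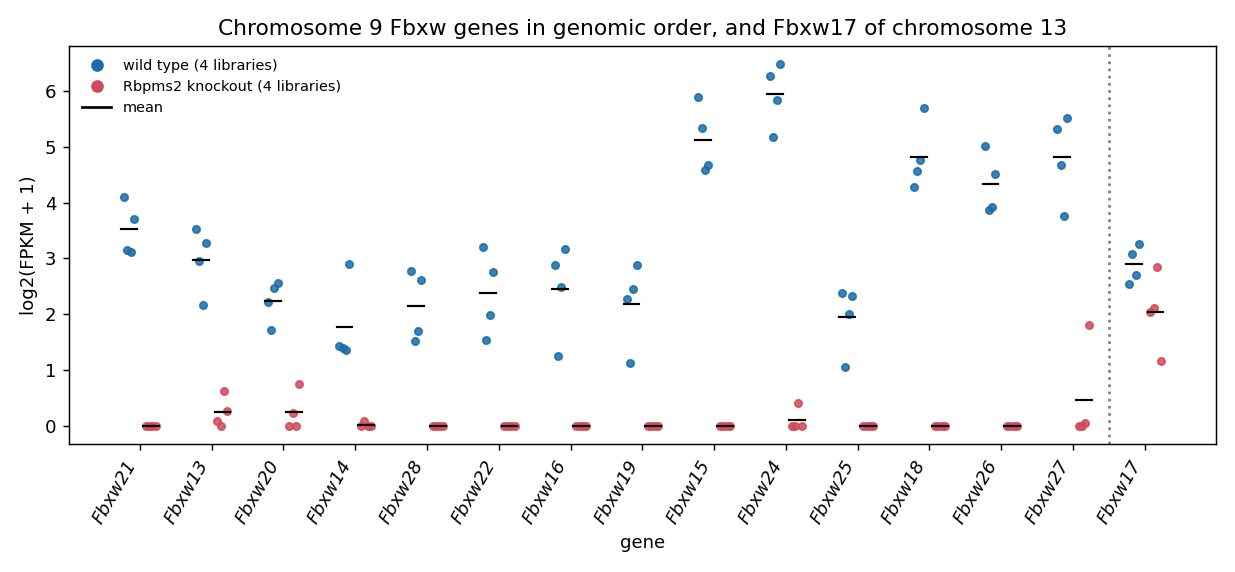
Level of each chromosome 9 Fbxw gene on a log2(FPKM + 1) axis, in genomic order, with Fbxw17 at the right of the dotted line. Each point is 1 library and bars are means of 4. Wild-type points lie above knockout points for each of the 14 genes of the block, whereas the genotypes overlap for Fbxw17.

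Fbxw24 had the highest mean in the block. Its wild-type levels were 76.37, 35.04, 56.13 and 88.19 FPKM, against 0, 0, 0.34 and 0 FPKM in the knockout (63.9 ± 23.4 against 0.0846 ± 0.169, SD, n = 4). The whole knockout signal of Fbxw24 was 6 reads in library 3, and the ratio of means was 755-fold. Among all genes in the table, Fbxw24 ranked 891 by mean wild-type level. Fbxw15, the neighbour of Fbxw24, was at 58.09, 39.12, 22.9 and 24.52 FPKM in wild type, and 0 reads were recovered in any knockout library. It was the most abundant gene of the block in wild-type library 2, where Fbxw24 was lower than in the other 3 libraries.

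The remaining abundant genes of the block are also at its distal end. Fbxw18 was at 18.47, 22.53, 26.05 and 50.95 FPKM in wild type and at 0 in all 4 knockout libraries. Fbxw26 was at 31.31, 13.52, 14.22 and 21.94 FPKM in wild type and likewise at 0 in the knockout. Wild-type levels of Fbxw27, the last gene of the block, were 38.82, 24.46, 12.56 and 44.84 FPKM, against 0, 0, 0.04 and 2.52 FPKM in the knockout. Knockout library 4 held nearly all of the 46 knockout reads of Fbxw27, and without that library the ratio of means moved from 47.1-fold to 2010-fold. The 6 distal genes (Fbxw15, Fbxw24, Fbxw25, Fbxw18, Fbxw26 and Fbxw27), of which Fbxw25 was low, carried 80.1% to 84.5% of the block's summed FPKM in each wild-type library. Fbxw24 alone carried 21.8% to 33.7%. The cut between distal and proximal genes followed no rule set beforehand, so the distal share is a description.

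The 8 proximal genes were lower. Fbxw21, at the near end, was the most abundant of them at 16.21, 7.89, 7.7 and 12.12 FPKM in wild type, with 0 reads in the knockout. Fbxw13 was at 10.46, 6.72, 3.52 and 8.66 FPKM in wild type and 0.06, 0, 0.55 and 0.21 FPKM in the knockout. Its ratio of means was 35.9-fold, or 83.5-fold without knockout library 3. Fbxw20 was at 3.65, 2.28, 4.54 and 4.9 FPKM in wild type and 0, 0.17, 0 and 0.69 FPKM in the knockout, a ratio of 17.9-fold that became 67.9-fold without knockout library 4. Fbxw16, Fbxw19, Fbxw22 and Fbxw28, and the distal Fbxw25, had wild-type means of 5.11, 3.96, 4.72, 3.76 and 3.09 FPKM and no knockout read. Fbxw14 was at 1.7, 1.62, 1.57 and 6.48 FPKM in wild type with 2 reads in the knockout (ratio of depth-scaled read totals 135, exact 95% counting interval 37.4 to 1120). Wild-type library 4 set the mean of Fbxw14, which was 2.84 ± 2.43 FPKM with it and 1.63 FPKM without it.

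Neighbours in this order of means, such as Fbxw15, Fbxw27 and Fbxw18 at 36.2 ± 16.3, 30.2 ± 14.5 and 29.5 ± 14.6 FPKM, did not differ beyond their spread over libraries. For the 9 genes of the block with no knockout read the fold is a lower bound, set against a floor of 3 reads over the 4 knockout libraries. The bound was at least 860-fold lower for Fbxw15, at least 713-fold for Fbxw18, at least 587-fold for Fbxw26 and at least 428-fold for Fbxw21. Across Fbxw19, Fbxw16, Fbxw22, Fbxw28 and Fbxw25 it ran from 219 down to 73.2. Floors and intervals cover counting error only, since reads from amplified mRNA without molecular identifiers are not independent molecules.

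On the log2(FPKM + 1) scale, the 14 differences between knockout and wild type ran from -5.83 for Fbxw24 to -1.75 for Fbxw14 (median -2.59), where the median over all 11235 tested genes was -0.12. All 14 were called lower (adjusted p under 0.05 in limma), beside 25.6% of all tested genes, and none of the 14 overlapped between genotypes, beside 39.9% of all tested genes. Nothing is read from these shares, because the block was selected on this contrast and 13 of its 14 genes passed the filter of 1 FPKM in at least 4 libraries only through wild type. Among the 9493 genes with 1 FPKM or more in every wild-type library, 85 had 0 reads in every knockout library (0.895%). Of the 14 genes of the block, all reached 1 FPKM in every wild-type library and 9 had 0 knockout reads. The flanking genes were low in both genotypes. Plxnb1 was at 0.17, 1.78, 1.93 and 3.23 FPKM in wild type and 0.04, 0.69, 1.12 and 0.08 FPKM in the knockout, and Spink8 did not exceed 0.38 FPKM in any library.

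Similar copies can share reads, and how multiply mapped reads and strand were handled is not given in the sources used here. Of the 50-base words in the transcripts of a gene of the block, 5.77% (Fbxw24) to 61.52% (Fbxw28) also occurred in transcripts of another gene, with a median of 8.76%. The median over the 63 F-box genes outside the block was 0.0%. The highest of these 63 were Fbxl12, Fbxw8, Fbxl15, Fbxo34, Fbxw4 and Fbxo22, at 34.95%, 31.14%, 22.29%, 17.41%, 17.33% and 13.45%. With 100-base words the median of the block was 1.16%. Fbxw14 and Fbxw28 shared most of their words with each other, so their separate levels are uncertain. Part of the sharing of Fbxw15 and Fbxw16 (15.98% and 21.51% of words) was with Gm42756 and Gm42494 (7.8% and 9.23% of words). Words were matched on both strands, and whether strand would separate the reads of these genes was not looked at. The other abundant genes of the block, Fbxw27, Fbxw18 and Fbxw26, shared 8.3%, 7.41% and 10.7% of their words.

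**Figure D2:**
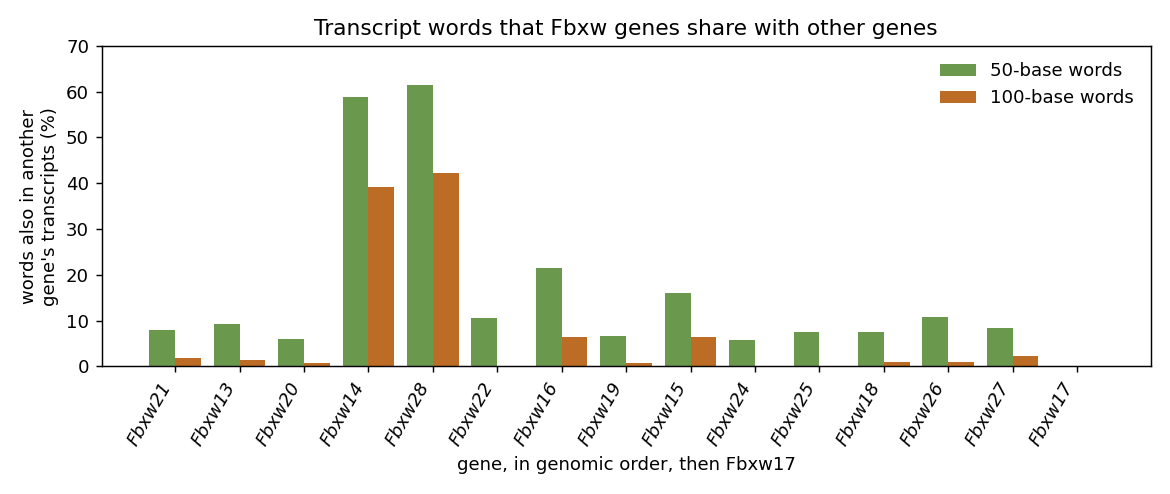
Percentage of the 50-base and 100-base words in each Fbxw gene's transcripts that also occur in another gene's transcripts, in genomic order and then Fbxw17. Fbxw14 and Fbxw28 stand highest at 58.92% and 61.52% of 50-base words, and Fbxw17 is at 0.

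Other properties of the libraries also varied, and some of them moved with genotype. Recovered depth was 8310403 to 11926442 reads in listed genes for wild type and 9554049 to 14526290 for the knockout. These ranges overlapped, with the lowest depth in wild type and the highest in the knockout. Rbpms2 itself was at 158.13, 167.41, 135.82 and 212.8 FPKM in wild type and 38.38, 58.28, 30.99 and 42.47 FPKM in the knockout. Ddx4 and Dazl, which mark germ cells, were at 54.01 FPKM or more in all 8 libraries and rose in the knockout with no overlap, from 69.0 ± 14.4 to 196.7 ± 106.8 and from 249.9 ± 57.4 to 520.7 ± 114.2 FPKM (SD, n = 4, limma adjusted p = 0.00843 and 0.00301). A list of 16 oocyte genes averaged 7.82 to 8.44 on the log2(FPKM + 1) scale in wild type and 3.67 to 4.64 in the knockout, with 13 lower, 3 higher and summed levels of 6313.7 to 9956.4 against 1843.0 to 3008.3 FPKM. Markers of other ovarian cells were uneven. Summed over 10 granulosa genes, wild type ran from 1.6 to 55.9 and the knockout from 11.3 to 406.1 FPKM (highest in library 3), and 1 of the 8 tested was called higher. Over 10 stromal genes the ranges were 3.8 to 86.3 and 10.1 to 339.2 FPKM, with 0 of 10 tested called and the highest sums in knockout libraries 2 and 3. Over 8 endothelial genes wild type did not exceed 2.8 FPKM, whereas knockout library 1 held 299.4 FPKM and the other 3 at most 6.1, and only 1 of the 8 was tested, with 0 called. Sums over 10 immune genes were 7.1 to 22.0 FPKM in wild type and 17.8 to 389.7 in the knockout, with 2 of 5 tested called higher. The 7 erythroid genes ran from 11.9 to 5367.8 FPKM in wild type and 99.6 to 3212.2 in the knockout, and 6 steroidogenic genes from 29.3 to 69.7 and 21.8 to 102.9 FPKM. Of these, 0 of 5 and 1 of 3 tested were called higher. Among the markers, those listed at 0 throughout a genotype included Bmp15 and Slc4a1 in the knockout, C1qa in wild type, and Cyp17a1 and Insl3 in both. The part of these markers in the F-box results was not tested. Wild-type library 3 and knockout libraries 2 and 3 had the highest granulosa and stromal sums, and are called the 3 somatic-rich libraries here. Knockout library 1, high in endothelial genes, and wild-type library 1, with 4211.1 FPKM of erythroid genes, were not among them. Without the 3 somatic-rich libraries, the summed level of the block was 160.6 to 291.8 FPKM in 3 wild-type libraries and 0.1 and 3.4 FPKM in 2 knockout libraries. In that fit 9 F-box genes outside the block were called higher and 12 lower, beside 2178 higher and 3097 lower of all 11713 genes tested.

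Outside the block, F-box genes moved in both directions. Of the 63, 49 passed the filter, and 9 were called higher and 13 lower, while 27 did not pass the test. That is 44.9% called, beside 43.4% of all tested genes, with 17.7% of all tested genes higher and 25.6% lower, so the share is near the background. The median difference was -0.27, beside -0.12 over all tested genes. Of the 49, 22 did not overlap between genotypes, beside 39.9% of all tested genes. Their summed level was 537.1 ± 17.1 FPKM in wild type and 534.8 ± 71.5 FPKM in the knockout (SD, n = 4 each), which overlapped.

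**Figure D3:**
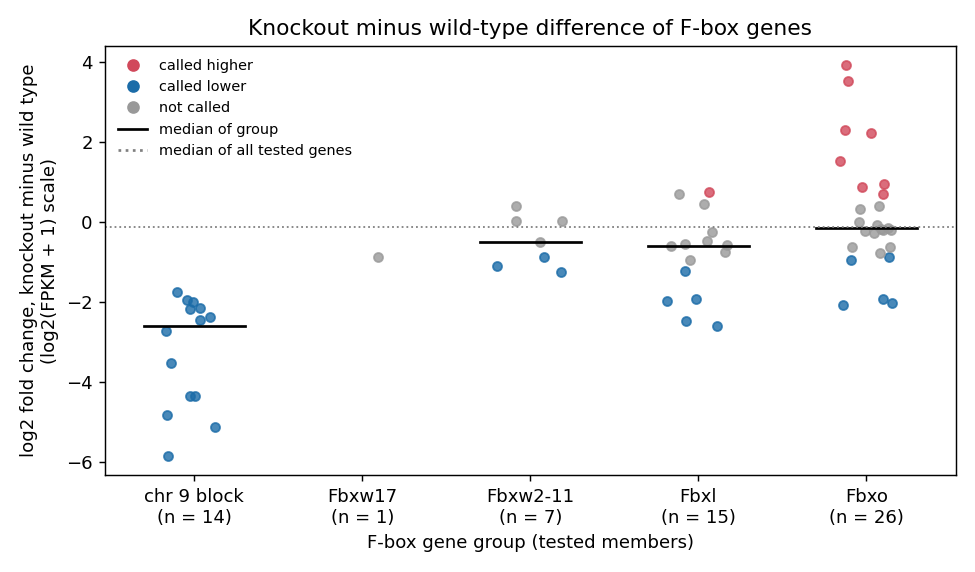
Knockout minus wild-type difference on the log2(FPKM + 1) scale for each tested F-box gene, by group, with the group median as a bar and the median of all tested genes (-0.12) as a dotted line. The 14 genes of the block lie between -5.83 and -1.75, a range that in the other groups holds only some of the called Fbxl and Fbxo genes, and Fbxo genes extend up to 3.91.

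Fbxw17, the copy on chromosome 13, did not pass the test. It was at 4.85, 7.41, 5.52 and 8.62 FPKM in wild type and 3.11, 3.33, 6.22 and 1.23 FPKM in the knockout, so the genotypes overlapped through knockout library 3. The difference was -0.86 ± 0.36 (SE, log2 scale, limma adjusted p = 0.0777). Fbxw17 was called lower without knockout library 3 (-1.13, limma adjusted p = 0.0201), without the 3 somatic-rich libraries (-1.36, 0.0257) and with array weights (-1.0, 0.024). Without knockout library 4 or after GC correction the difference was -0.56 (0.191 and 0.22).

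Among the Fbxw genes from Fbxw2 to Fbxw11, 3 of 7 tested were called lower and 0 higher (42.9%, beside 43.4% of all tested genes), with a median of -0.49. With GC correction 1 was called lower and 0 higher, beside 2651 lower and 1667 higher of all 11220 genes tested in that fit. Fbxw11, the closest relative of the β-TrCP gene Btrc, was at 28.47, 37.47, 41.73 and 38.13 FPKM in wild type and 11.88, 12.92, 20.47 and 14.62 FPKM in the knockout. All 4 wild-type libraries were above all 4 knockout libraries, and the difference was -1.24 ± 0.22 (SE, limma adjusted p = 0.00125). Fbxw8, which works with the cullin Cul7, fell from 5.61 ± 1.48 to 2.1 ± 0.692 FPKM (SD, n = 4, limma adjusted p = 0.0102), but 31.14% of its 50-base words also belong to Gm9754 and the call was lost after correction for GC content (-0.54, limma adjusted p = 0.153). Fbxw5 was at 24.8 ± 4.59 FPKM in wild type and 13.7 ± 5.34 FPKM in the knockout (limma adjusted p = 0.0324). Its genotypes overlapped, and the call was lost without any 1 of wild-type libraries 1, 3 and 4 and knockout libraries 2 and 3 (limma adjusted p from 0.0639 to 0.0862). The Fbxw5 call was also lost after GC correction (0.407), without the 3 somatic-rich libraries (0.227), with median-of-ratios scaling (0.0831), with array weights (0.0924) and with no filter (0.0561). Fbxw7, which targets cyclin E and Myc, was at 15.4 ± 3.74 and 15.5 ± 2.62 FPKM (difference 0.02 ± 0.23, SE). Fbxw2, Fbxw4 and Fbxw9 did not pass the test either, with differences of 0.39, -0.49 and 0.02, and the mean ratio of Fbxw4 moved from 1.88-fold to 3.06-fold lower without knockout library 4. Fbxw10 was below the filter, at 0.12 to 1.77 FPKM in wild type and 0.3, 0, 0 and 0 FPKM in the knockout. Summed over the 8 genes, the level was 96.2 to 106.7 FPKM in wild type and 59.5 to 73.5 FPKM in the knockout.

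Of the 36 Fbxo genes, 26 were tested, and 8 were called higher, 5 lower and 13 neither (median -0.15). That is 13 of 26 called, beside 43.4% of all tested genes. GC correction left 5 higher and 4 lower, beside 1667 higher and 2651 lower of all 11220 genes tested in that fit. Fbxo6, whose product binds N-linked sugars on glycoproteins, had the largest rise of any tested F-box gene. It was at 1.21, 0.73, 0 and 0.49 FPKM in wild type and 33.32, 19.44, 16.47 and 22.46 FPKM in the knockout. The lowest knockout library was thus far above the highest wild-type library, and the difference was 3.91 ± 0.32 (SE, limma adjusted p = 1.02e-05), a 37.7-fold ratio of means. Fbxo6 shared no 50-base word with another gene.

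Fbxo6 lies on chromosome 4 beside its relatives Fbxo44 and Fbxo2 (148145716 to 148166424 in all), a group looked at after the values had been seen. Fbxo44 was at 0, 0, 0 and 0.16 FPKM in wild type and 0.62, 1.89, 1.69 and 2.25 FPKM in the knockout. Fbxo2 had 0 wild-type reads and was at 3.25, 0, 0.65 and 0.41 FPKM in the knockout. Both were under the filter and have no test, and the genotypes did not overlap for Fbxo44. The remaining genes of the same sugar-binding group, Fbxo17 and Fbxo27, lie together on chromosome 7 and were also under the filter. Fbxo17 was at 0 to 0.85 FPKM in wild type and 0.59 to 3.63 FPKM in the knockout, with its highest levels in the stromal-rich knockout libraries 2 and 3, and Fbxo27 was at most 1.56 FPKM in any library.

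The next largest rises were in Fbxo15, Fbxo7 and Fbxo47. Fbxo15, a target of Oct4 in embryonic stem cells, was at 4.11, 0.24, 0.04 and 0.79 FPKM in wild type and 42.34, 12.09, 9.27 and 33.48 FPKM in the knockout. The difference was 3.52 ± 0.58 (SE, limma adjusted p = 0.000777). Wild-type library 1 sets its wild-type mean, and the ratio of means was 18.8-fold with it and 68.7-fold without it. Fbxo47, known for meiotic chromosome synapsis, was at 3.35, 3.79, 4.41 and 6.49 FPKM in wild type and 39.1, 21.83, 14.49 and 27.54 FPKM in the knockout (2.23 ± 0.31, SE, limma adjusted p = 0.000286). Fbxo7, which acts with parkin in the clearance of mitochondria, was at 4.63, 5.08, 4.95 and 3.69 FPKM in wild type and 34.3, 29.53, 14.56 and 31.21 FPKM in the knockout (2.29 ± 0.28, SE, limma adjusted p = 0.000129). For these 3 genes every knockout library was above every wild-type library, and knockout library 3 was the lowest of the knockout libraries.

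The other called rises were smaller. Fbxo33 rose from 4.05 ± 1.73 to 12.9 ± 1.54 FPKM (SD, n = 4, 1.53 ± 0.29 SE, limma adjusted p = 0.00184) with no overlap. Fbxo30, known for muscle atrophy and BMP signalling, was at 10.7 ± 2.7 and 21.5 ± 5.56 FPKM, and Fbxo3, which targets Fbxl2, at 10.5 ± 2.86 and 20.1 ± 5.39 FPKM (limma adjusted p = 0.0168 and 0.0231). Their genotypes overlapped, and knockout library 2 was the lowest for both. After GC correction both calls were lost (differences 0.13 and 0.43), as they were without wild-type library 4 (limma adjusted p = 0.0548 and 0.0703) and, for Fbxo3, without wild-type library 3 or knockout library 1 or 4 (0.0579 to 0.0645). Fbxo8, which carries a Sec7 domain, was at 9.65 ± 1.99 and 16.1 ± 2.45 FPKM (limma adjusted p = 0.0274). That call was lost without any 1 of wild-type libraries 2 to 4 and knockout libraries 2 and 4 (limma adjusted p from 0.0531 to 0.08), without the 3 somatic-rich libraries (0.1) and with a replicate block (0.0521), and its difference was -0.01 after GC correction.

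**Figure D4:**
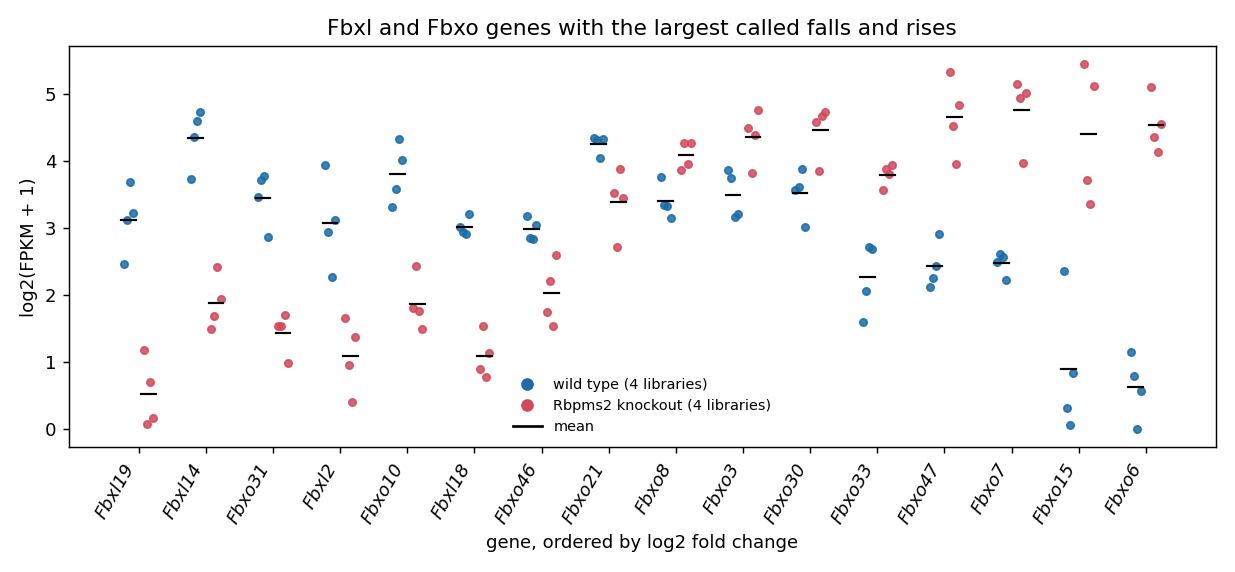
Levels of 16 called Fbxl and Fbxo genes with a mean of 5 FPKM or more in the higher genotype, on a log2(FPKM + 1) axis, ordered by difference. Each point is 1 library and bars are means of 4. The genotypes are separated for 14 of them and overlap for Fbxo3 and Fbxo30.

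Falls among Fbxo genes included Fbxo31, known for cyclin D1 turnover, and Fbxo10, known for Bcl2 turnover. Fbxo31 was at 9.96, 12.12, 12.6 and 6.25 FPKM in wild type and 1.89, 1.89, 2.25 and 0.99 FPKM in the knockout (-2.01 ± 0.29, SE, limma adjusted p = 0.000371). Fbxo10 was at 8.87, 10.96, 18.97 and 15.09 FPKM in wild type and 2.5, 4.38, 2.38 and 1.81 FPKM in the knockout (-1.93 ± 0.31, SE, limma adjusted p = 0.000619). In both, the genotypes were clearly separated. Fbxo40, best known from muscle, was the remaining large fall, outside the level set for naming and picked after its values were seen. It was at 2.53, 2.92, 1.91 and 8.43 FPKM in wild type and 0, 0, 0.2 and 0.02 FPKM in the knockout. It passed the filter only through wild type, so its call has no weight and its values are a description. Fbxo21 and Fbxo46 were called lower at 18.2 ± 1.78 against 9.91 ± 3.34 FPKM and 6.91 ± 0.917 against 3.23 ± 1.41 FPKM (limma adjusted p = 0.0214 for both), but neither call survived GC correction (0.0919 and 0.0947) or the loss of wild-type library 1 or 4 (0.0521 to 0.0601). The Fbxo21 call was also lost without wild-type library 2 (0.0562), and that of Fbxo46 without knockout library 1 (0.0571), with either median-of-ratios or quantile scaling (0.0527 and 0.0931), and without the 3 somatic-rich libraries (0.0798).

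Fbxo5, Fbxo43, Fbxo34 and Fbxo11 did not pass the test. Fbxo5, or Emi1, an inhibitor of the anaphase-promoting complex, was at 19.11, 26.73, 10.17 and 16.8 FPKM in wild type and 15.71, 21.46, 11.32 and 10.23 FPKM in the knockout. Fbxo43, or Emi2, which holds eggs at the second metaphase, was at 6.7, 5.49, 3.02 and 6.05 FPKM in wild type and 3.71, 1.55, 1.91 and 6.14 FPKM in the knockout. Both overlapped between genotypes, with differences of -0.27 ± 0.32 and -0.63 ± 0.37 (SE, limma adjusted p = 0.507 and 0.197), and the latter passed after GC correction (-1.14, limma adjusted p = 0.0256) and was -0.28 without the 3 somatic-rich libraries (0.484). Fbxo34, known for oocyte maturation, was at 20.8 ± 6.55 and 12.7 ± 2.28 FPKM (limma adjusted p = 0.0612). Fbxo11, a regulator of Bcl6, was at 16.2 ± 5.04 and 15.5 ± 9.44 FPKM, with knockout library 3 alone at 29.63 FPKM. Fbxo32, or atrogin-1, was under the filter and above 1 FPKM only in wild-type library 4 and knockout library 2. Fbxo4, known for cyclin D1 turnover, was also under the filter, at 0.05 to 0.9 FPKM in wild type and 0.46, 4.53, 7.67 and 2.4 FPKM in the knockout, highest in the stromal-rich libraries 2 and 3. Summed over the 36 Fbxo genes, the level was 256.9 to 278.1 FPKM in wild type and 292.5 to 388.1 FPKM in the knockout.

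Of the 18 Fbxl genes, 15 were tested, and 5 were called lower, 1 higher and 9 neither (median -0.59). The share called, 6 of 15, was near the 43.4% of all tested genes, among which lower calls also outnumbered higher ones. With GC correction 7 were called lower and 0 higher, beside 2651 lower and 1667 higher of all 11220 genes tested in that fit. Fbxl19, which binds unmethylated CpG DNA, was at 4.48, 7.67, 11.82 and 8.36 FPKM in wild type and 1.26, 0.06, 0.63 and 0.12 FPKM in the knockout (-2.59 ± 0.36, SE, limma adjusted p = 0.000258). Its ratio of means was 15.7-fold, or 30.1-fold without knockout library 1. Fbxl14, known for turnover of Snail, was at 12.18, 19.5, 22.99 and 25.35 FPKM in wild type and 1.82, 2.23, 4.36 and 2.82 FPKM in the knockout (-2.46 ± 0.3, SE, limma adjusted p = 0.00012). In both genes all wild-type libraries were above all knockout libraries. Fbxl18 fell from 7.1 ± 0.788 to 1.17 ± 0.533 FPKM, and Fbxl2, a lipid-anchored F-box protein, from 8.12 ± 4.45 to 1.25 ± 0.788 FPKM (SD, n = 4, limma adjusted p = 0.000275 and 0.00261), again with no overlap. The fifth, Fbxl12, lies outside the level set for naming. It fell from 4.29 ± 0.787 to 1.39 ± 1.0 FPKM (limma adjusted p = 0.0107), and 34.95% of its 50-base words also belong to Ubl5.

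Among the Fbxl genes not called, Fbxl21, known for turnover of clock proteins, was at 3.59 ± 0.856 and 1.59 ± 1.25 FPKM (limma adjusted p = 0.0673), with overlap. It was called lower without knockout library 1 (-1.22, 0.0301), after GC correction (-1.15, 0.0336), with a replicate block (-0.95, 0.0467) and with both of the latter (-1.15, 0.025). The difference was -0.63 without knockout library 2 (0.163) and -0.39 without the 3 somatic-rich libraries (0.379). Fbxl5, the iron-sensing F-box protein that targets Irp2, was at 22.84, 26.91, 22.1 and 17.21 FPKM in wild type and 43.43, 25.27, 29.23 and 53.82 FPKM in the knockout (0.7 ± 0.26, SE, limma adjusted p = 0.051). It passed without knockout library 2 or 3 (limma adjusted p = 0.0226 and 0.0381) and without the 3 somatic-rich libraries (1.1, 0.0102). By contrast, the difference was 0.51 without knockout library 4 (0.136) and 0.11 after GC correction (0.722). Summed over the 18 Fbxl genes, the level was 144.5 to 167.3 FPKM in wild type and 104.4 to 137.7 FPKM in the knockout.

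The ligase machinery that F-box proteins share moved in both directions. From a list of 42 genes, all tested and including F-box genes under other names, 5 were called higher and 5 lower (23.8%, beside 43.4% of all tested genes), with a median difference of 0.01, and the difference between these shares was not tested. With single libraries left out, 3 to 7 were called higher and 4 to 7 lower. Over all 11574 to 11857 genes tested in those fits, 1571 to 1992 were called higher and 2378 to 3147 lower. With GC correction 5 of the list were called higher and 6 lower, beside 1667 and 2651 of all 11220 genes tested. The core subunits Cul1, at 49.0 ± 4.33 and 54.2 ± 6.65 FPKM, and Rbx1, at 108.0 ± 10.4 and 92.8 ± 15.6 FPKM, overlapped and did not pass the test (limma adjusted p = 0.534 and 0.32). The adaptor Skp1, listed as Skp1a, was far above the other subunits, at 1788.78, 1132.0, 944.04 and 989.14 FPKM in wild type and 540.06, 738.78, 746.44 and 856.39 FPKM in the knockout. It was called lower (-0.72 ± 0.23, SE, limma adjusted p = 0.0268), and the call was lost without wild-type library 1 or 2 or knockout library 1 (0.0568 to 0.0824), with median-of-ratios scaling (0.0883) and with no filter (0.1).

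Called members of the list had several roles, and those below are named because they were called. The NEDD8-activating enzyme subunits Nae1 and Uba3, which start cullin neddylation, rose by 1.49 and 0.8 on the log2 scale (limma adjusted p = 0.00111 and 0.0378). The signalosome subunits Cops2 and Cops4, which act in its removal, rose by 1.68 and 0.71 (0.000253 and 0.0358), and the genotypes overlapped for Cops4. Cops3, Cops5, Cops6, Cops7a, Cops7b, Cops8 and Gps1, also of the signalosome, were not called (differences from -0.49 to 0.66). Cand2, a cullin exchange factor, rose by 1.25. The neddylation cofactors Dcun1d1 and Dcun1d2 fell by 1.24 and 1.23, the ubiquitin-conjugating enzyme Cdc34 fell by 1.06, and Glmn, which binds Rbx1, fell by 1.0. Transcript GC content of these called genes ran from 37.3% in Cops2 to 63.3% in Cdc34. Whether each of these calls holds after GC correction or in the other alternatives was not looked at. Among F-box genes under other names, Btrc, Ccnf, Kdm2a and Kdm2b did not pass the test (differences -0.14, -0.55, 0.04 and 0.26). Skp2, which targets the CDK inhibitor p27, was at 2.69, 2.74, 1.46 and 0.47 FPKM in wild type and 0.04, 0.12, 1.44 and 0.03 FPKM in the knockout (limma adjusted p = 0.0665). It was called lower without knockout library 3 (0.0192) or wild-type library 4 (0.0324), but not without any 1 of the other 6 libraries (0.0953 to 0.169). Skp2 was also called lower without the 3 somatic-rich libraries (-1.4, 0.0463) and after GC correction (-1.38, 0.0221). Fbxo18, listed as Fbh1, a DNA helicase, was at 7.24 ± 1.63 and 12.5 ± 4.58 FPKM (limma adjusted p = 0.0885). It was called higher without knockout library 2 (0.0479), but not without any 1 of the other 7 libraries (0.0611 to 0.218). Without the 3 somatic-rich libraries Fbh1 was called higher (1.19, 0.0115), whereas it was not after GC correction (0.75, 0.0678).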

How the data were processed

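RNA of P1 mouse oocytes was measured in 8 libraries. Per the submitters' processing notes the tools were HTSeq, HISAT2 and cutadapt and the build GRCm38 (mm10), with no version or annotation release. The deposited values are FPKM per gene, computed by the authors. Symbols, lengths and positions came from GENCODE M21 (21851 of 21959 genes matched). FPKM multiplied by exon length came in whole reads, within 0.02 reads, for 97.4% to 97.6% of values, which gave depths and floors. Libraries of 1 genotype all differed beyond counting noise, the closest pair with a chi-square of 35.4 per degree of freedom.

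Genotypes were compared with limma 3.58.1 (trend) in R 4.3.3 on log2(FPKM + 1), for 11235 genes with 1 FPKM or more in at least 4 libraries, with Benjamini-Hochberg adjusted p under 0.05 as called. Fold changes on this scale understate changes of low genes. The fit was tested on simulated data with independent normal noise, in which no low gene was changed. That test does not cover changes of low genes or noise shared between genes. Coding sequences and promoters were aligned with MAFFT 7.526. The members and lists were chosen with earlier results of these data known. Named were all Fbxw genes, a fixed set of oocyte, clock, iron, muscle and core ligase genes, and up to 12 called Fbxl or Fbxo genes per direction with a mean of 5 FPKM or more; some of these are not reported here. Alternatives changed the pseudocount, filter, scaling, weights, moderation, GC correction, replicate block and libraries used, and added a limma-voom fit on recovered reads.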

Additional observations from a re-analysis of the deposited data

Results flagged for a closer look

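In 98 groups of 4 libraries, 1 per gene and genotype, 8 held a library far from the other 3, where chance alone flags about 5% of groups. In the block, Fbxw14 was at 6.48 FPKM in wild-type library 4, against at most 1.7 in the others, and Fbxw27 was at 2.52 FPKM in knockout library 4, against at most 0.04. Among the other F-box genes, knockout library 3 stood apart for Fbxo11 (29.63 FPKM, high) and Fbxw2 (11.08 FPKM, low), and also for Skp2 (1.44 FPKM, high). Fbxo21 was low in wild-type library 3 (15.51 FPKM), Fbxo32 was high in wild-type library 4 (1.12 FPKM), and Fbxw8 was high in knockout library 1 (3.13 FPKM).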

How the results depend on the processing

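Since the block was selected on this contrast, its calls say nothing about stability. A filter of 5 FPKM in at least 4 libraries tested 6 of its genes and called 6 lower, beside 2156 of all 7427 genes tested. Outside the block, 5 rather than 9 genes were called higher with GC correction, with or without a replicate block, and 12 or 11 lower. Over all 11220 genes tested with GC correction, 1667 were called higher and 2651 lower, or 1805 and 2681 with the replicate block. Fbxo8 changed sign in both GC settings, to -0.01, and the cause was not tested. Median-of-ratios scaling moved the median over all genes from -0.12 to 0.0, and calls over all genes from 1991 higher and 2880 lower to 2313 and 2493. Outside the block, 21 named genes were called, of which 10 kept the call in all 22 alternatives and 2 more (Fbxl19 and Fbxl2) in the 21 that tested them. Replicate numbers did not pair the libraries (correlations 0.185, 0.016, 0.361 and -0.053, with 1 of 4 best with its own number). With the replicate block, 8 F-box genes outside the chromosome 9 block were called higher and 14 lower, beside 2113 higher and 2921 lower of all 11235 tested genes. Depth limits the genes at 0 reads, whose folds are bounds, and genes of a few FPKM.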
